A study of Schizosaccharomyces pombe with 17 samples.

Results

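A strain of the fission yeast Schizosaccharomyces pombe that carries both rrp6-cat and dis3-4, sampled after 1 h at 30 °C, was set against a wild type strain to see which transcripts differed when both nucleases of the RNA exosome were mutated. These are 4 of the 17 samples of the series, 2 libraries of polyA-selected RNA per strain, and they were chosen by their labels and not by any measured value. Values were compared for 6083 features that averaged at least 1 FPKM over all 14 polyA-selected libraries, of 7027 in the table, which leaves 944 that were not tested.

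The double mutant was the rrp6-cat dis3-4 strain JLP1863, grown at 23 °C and then held at 30 °C for 1 h. Its 23 °C culture was also sequenced, before any shift. The dis3-4 strain JT449, given the same shift to 30 °C, and the rrp6-cat strain JLP1708, grown at 32 °C, served as single mutants. Wild type was strain CHP1365, grown at 32 °C with no shift, so genotype and temperature history differ together between the double mutant and wild type and cannot be told apart in that comparison. All were vegetative cells in YES, a rich medium, at mid-log phase, and each group has 2 libraries. The labels name the alleles without describing the lesions, give 1 strain for each genotype, and do not say whether the 2 libraries of a group come from separate cultures. The p-values below therefore rest on a spread between libraries that may be technical. That spread is shared over all 14 polyA-selected libraries in 7 groups. It understates the noise of wild type, which was the most variable group, and overstates that of the double mutant.

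The exosome degrades and trims RNA from its 3′ end. Dis3 is the nuclease of its core and works in the nucleus and the cytoplasm, while Rrp6 is a nuclear exonuclease bound to the same core. In the nucleus the complex trims precursors of snoRNAs, snRNAs and rRNA and removes antisense and intergenic transcripts. In vegetative fission yeast it also removes meiotic mRNAs that the RNA-binding protein Mmi1 marks, with the help of the MTREC complex, of which Red1 is a part. Mature snoRNAs, snRNAs and tRNAs carry no polyA tail, so their reads in polyA-selected libraries come from molecules that bear one or were carried over.

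The libraries differed in quality, and wild type was the more variable of the pair. Across the tested features the 2 double mutant libraries correlated at r = 0.956 and the 2 wild type libraries at r = 0.893, and the mean square between replicates of log2(FPKM + 1) was 0.166 in the double mutant and 0.663 in wild type, with 0.232 to 0.334 in the other 5 groups. The double mutant libraries listed 837 and 795 features at exactly 0, and wild type listed 829 and 1224. Some genes that every cell needs, such as cbf5, which encodes a snoRNP pseudouridine synthase, stood at 0 in all of these libraries, so a value of 0 is given as listed and not as absence. The files hold no read totals, so no interval for counting error can be attached to a value. A rough guide to depth was taken from the most common low product of FPKM and gene length in each library. On it wild type replicate 2 had 0.24 of the depth of wild type replicate 1, and the double mutant libraries had 0.48 and 0.59. How far depth shaped the values of 0 and the gap between the wild type libraries was not tested.

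In the comparison with wild type, 847 of the 6083 features (13.9%) passed limma's moderated test at an adjusted p under 0.05. Of these, 712 (11.7%) were higher in the double mutant and 135 (2.22%) were lower, and 1680 features (27.6%) had an unadjusted p under 0.05. The median log2 change over all tested features was 0.24, which was 0.50 without wild type replicate 1 and −0.01 without wild type replicate 2, so changes are best read against that shift. Both double mutant libraries lay above both wild type libraries for 2147 features (35.3%) and below both for 947 (15.6%), 3094 (50.9%) in all. With weights that let the noisier libraries count less, 378 features passed, 340 higher and 38 lower. With only the 2 compared groups in the fit 71 passed, 68 higher and 3 lower. Among these were 38 long noncoding RNAs higher and 2 lower, 16 snoRNAs higher and 1 lower, and 9 protein-coding genes, all higher. In that fit none of the 12 Mmi1 targets, 8 snRNAs or 17 ribosome biogenesis genes described below passed. The number that passed was 306 without double mutant replicate 1, 283 without double mutant replicate 2, 1608 without wild type replicate 1 and 531 without wild type replicate 2. Only a minority of the 847 passed in all 4 of these fits together.

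The mRNAs of both mutated genes were present in every library. rrp6 stood at 117 and 105 FPKM in the double mutant and at 95.4 and 43.2 FPKM in wild type, a log2 change of 0.78 (SE 0.36, adjusted p = 0.19). dis3 stood at 71.4 and 71.6 FPKM in the double mutant and at 64.7 and 37.7 FPKM in wild type, a log2 change of 0.53 (SE 0.28, adjusted p = 0.25). Neither passed the test, and since the labels do not describe the lesions, these levels do not check the alleles.

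By class, the share called higher was 23% of tested long noncoding RNAs, 87.5% of snRNAs, 31% of tested tRNA features and 7.46% of tested protein-coding genes, beside 11.7% of all features. Among the 1385 tested long noncoding RNAs of 1529, 319 were higher in the double mutant and 20 were lower, with a median log2 change of 0.68 beside 0.24 for all features. Among the 50 tested snoRNA features of 65, 30 were higher and none was lower. Of the 8 snRNA features 7 were higher, with a median of 3.02. Only 29 of 171 tRNA features passed the filter, 22 of them with wild type at or close to 0 in both libraries, and 9 were higher. Those 22 passed the filter through mutant libraries and could not be called lower. The tRNA share called higher therefore follows in part from the filter and is not read as a result about the class. The same limit holds for 74 of the tested long noncoding RNAs, 6 of the tested snoRNA features and 1 of the snRNA features. In these too both wild type libraries were at or close to 0. In the 4547 tested protein-coding genes of 5092, 339 were higher and 113 lower, with a median of 0.15. That last split depends on scaling: quantile normalization gave 273 higher and 444 lower among protein-coding genes. The noncoding classes named above kept more higher than lower calls under every scaling tried.

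**Figure D1:**
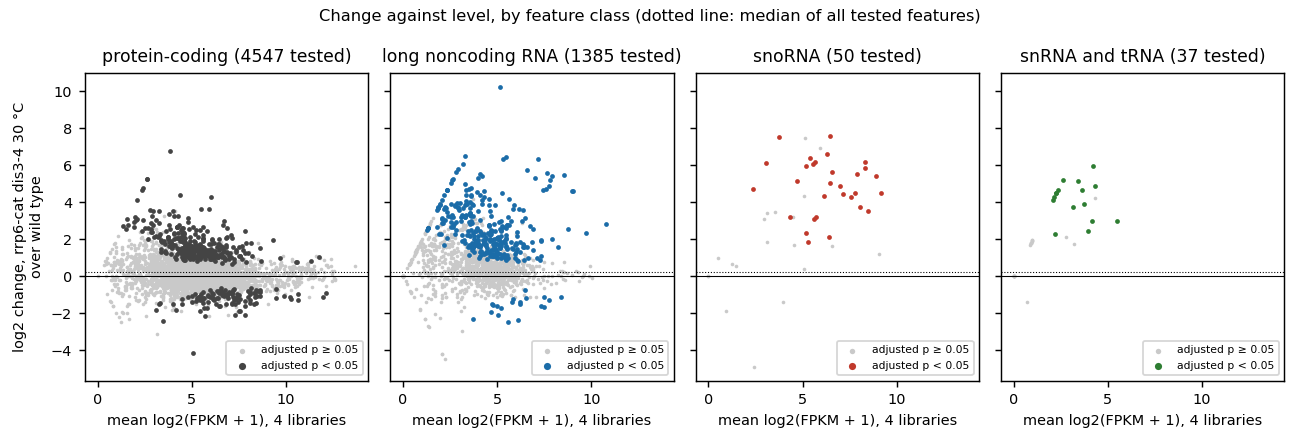
Log2 change of rrp6-cat dis3-4 at 30 °C over wild type (vertical axis, log2(FPKM + 1) scale) against the mean level over the 4 libraries (horizontal axis, same scale), 1 point per tested feature, in 4 panels by feature class; filled colours mark adjusted p under 0.05 and the dotted line is the median change of 0.24. The coloured points of the snoRNA, snRNA and tRNA panels all lie above 0, and the long noncoding RNA panel has 319 coloured points above 0 and 20 below.

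The same classes took a larger part of each double mutant library. Long noncoding RNAs made up 12.2% and 11.8% of the summed FPKM in the double mutant, against 7.37% and 6.83% in wild type. snoRNAs made up 4.19% and 3.03% in the double mutant, against 0.344% and 0.164% in wild type. snRNAs made up 0.0687% and 0.0604% in the double mutant, against 0.00407% and 0.00681% in wild type. In none of the 3 classes did the groups overlap. The dis3-4 libraries at 30 °C, with 11.1% and 12.3% in long noncoding RNAs and 3.77% and 4.99% in snoRNAs, overlapped the double mutant in both classes, whereas their snRNA shares of 0.0181% and 0.0287% lay below those of both double mutant libraries. The tRNA share stood at 0.0873% and 0.0526% in the double mutant, 0.0234% and 0.0333% in dis3-4, 0.0813% and 0.0807% in rrp6-cat and 0.00522% and 0.00698% in wild type. Ribosomal protein genes took 39.9% and 37.2% of the double mutant libraries and 37.4% and 38.0% of the wild type libraries, and these ranges overlap.

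**Figure D2:**
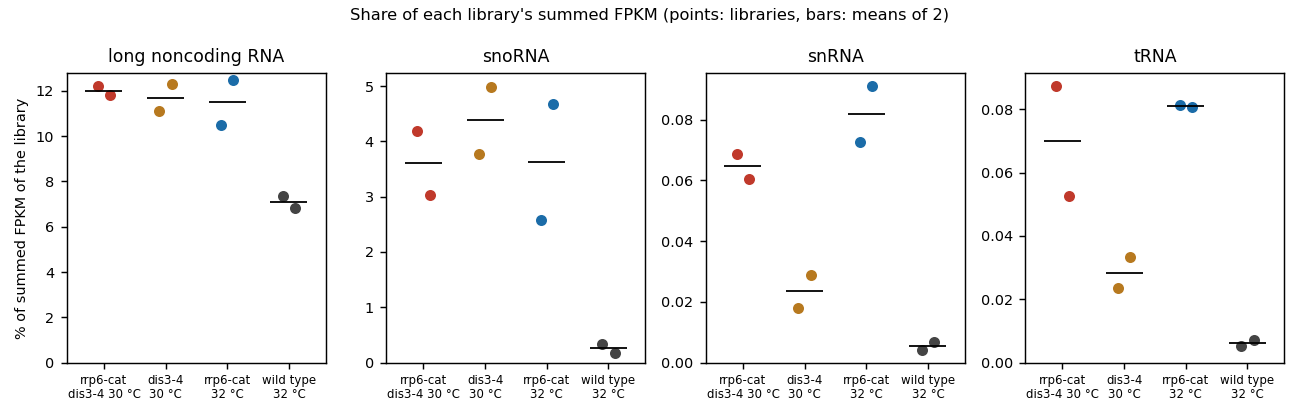
Share of the summed FPKM of each library (vertical axes, percent) taken by long noncoding RNAs, snoRNAs, snRNAs and tRNAs in rrp6-cat dis3-4 at 30 °C, dis3-4 at 30 °C, rrp6-cat at 32 °C and wild type at 32 °C; points are libraries and bars are means of 2. Every mutant library lies above both wild type libraries in all 4 panels, and for snRNAs and tRNAs both dis3-4 libraries lie between wild type and the double mutant.

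snoRNAs, which guide the methylation and pseudouridylation of rRNA and in a few cases its cleavage, had a median log2 change of 4.00, beside 3.02 for snRNAs. Without wild type replicate 2 the order turned, at 3.30 for snoRNAs and 3.64 for snRNAs. sno16 stood at 256 and 134 FPKM in the double mutant and at 0.000707 and 0.000409 FPKM in wild type (log2 change 7.54, SE 0.46, adjusted p = 6.1e-06). snR5 stood at 1793 and 859 FPKM in the double mutant, and at 40.3 FPKM in 1 wild type library with the other listed at 0 (log2 change 7.59, SE 1.25, adjusted p = 0.0023). Both passed in each fit without 1 of the 4 libraries. snoR69b, at 1058 and 563 FPKM in the double mutant and 62.9 and 0 FPKM in wild type, had a log2 change of 6.59 (SE 2.00, adjusted p = 0.048), and its call was lost without either double mutant library or wild type replicate 2. Further snoRNAs were chosen after their values were seen, to show ones that were well covered in both wild type libraries: snR10 stood at 3074 and 2326 FPKM in the double mutant and 54.3 and 23.3 FPKM in wild type (log2 change 6.19, adjusted p = 1.5e-05). snR92 stood at 1023 and 672 FPKM in the double mutant and 43.1 and 40.6 FPKM in wild type (log2 change 4.28, adjusted p = 7.9e-05). For these abundant snoRNAs the groups were far apart in every pair of libraries. The 30 called snoRNA features ranged from snR101, at a log2 change of 1.85, to snR5. Across the library fits the number called was 21 without double mutant replicate 1, 27 without double mutant replicate 2, 34 without wild type replicate 1 and 27 without wild type replicate 2.

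Some of these features overlap on the same strand in the annotation, and the estimated FPKM can then be split between them. SPNCRNA.901, at 3140 and 1961 FPKM in the double mutant and 53.8 and 31.7 FPKM in wild type, covers snR91, which was listed at 0.0005 and 0.0008 FPKM in the double mutant and 24.2 and 33.0 FPKM in wild type. SPNCRNA.814 and snR98, and SPNCRNA.1394 and snR3, are overlapping pairs in which both members were higher in the double mutant. For such pairs the sum is better determined than the level of either member. The protein-coding genes gdh1, ser2, rrn3, srx1, new14, mpp6 and cid14 each overlap a neighbour on their own strand too, so their levels carry the same uncertainty.

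The snRNA features, which cover RNA parts of the splicing machinery and U3, an RNA of rRNA cleavage, were higher as well. They were classed by identifier and annotation, not by function. The snRNA counts, shares and medians given here are therefore not those of splicing RNAs alone. snu3 stood at 55.2 and 70.3 FPKM in the double mutant and at 2.25 and 0 FPKM in wild type (log2 change 5.13, SE 0.50, adjusted p = 7.9e-05). snu32 stood at 135 and 158 FPKM in the double mutant and 4.69 and 0 FPKM in wild type (log2 change 5.95, SE 1.09, adjusted p = 0.0043). snu1 stood at 64.4 and 40.5 FPKM in the double mutant and 0.749 and 5.96 FPKM in wild type (log2 change 3.90, SE 0.70, adjusted p = 0.0038). In all 3 the lower double mutant library lay several times above the higher wild type library. snu2, snu4, snu5 and snu6, named after their values were seen to complete the class, were also higher. The remaining snRNA feature, snR48, stood at 0 and 10.8 FPKM in the double mutant, with wild type at 0 (adjusted p = 0.63). With library weights, 5 of the 8 passed. The tRNA features with the largest changes were SPATRNASER.01, at 51.1 and 24.9 FPKM in the double mutant with wild type listed at 0, and SPBTRNAMET.04, at 161 and 70.2 FPKM in the double mutant and 11.8 and 0 FPKM in wild type. Both calls were lost without double mutant replicate 1, that of SPATRNASER.01 also without double mutant replicate 2 or wild type replicate 2, and only 3 of the 9 tRNA calls passed with library weights.

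Long noncoding RNAs were split by their place relative to other genes, with no test of the difference. Of 267 tested that overlap no other annotated gene, 103 were higher (38.6%) and 1 was lower, with a median log2 change of 1.62. Of 829 antisense to a protein-coding gene 132 were higher (15.9%) and 16 lower (1.93%), with a median of 0.45, beside 11.7% higher and 2.22% lower among all features. Both wild type libraries stood at or close to 0 for 39 of the 267 and for 10 of the 829. Those features passed the filter through mutant libraries and could not be called lower. The shares called higher therefore follow in part from the filter, more so for the 267. SPNCRNA.491, on chromosome III, stood at 1470.3 and 987 FPKM in the double mutant and at 0.00251 and 0.0115 FPKM in wild type (log2 change 10.23, SE 0.45, adjusted p = 2.9e-07), the largest change of any feature. It overlaps SPNCRNA.1189 on the same strand, which stood at 67.8 and 77.6 FPKM in the double mutant and 51.3 and 34.8 FPKM in wild type, and how the reads were divided between them was not tested. SPNCRNA.1415, on chromosome II and overlapping no gene, stood at 107 and 77.6 FPKM in the double mutant, with both wild type libraries at 0 (adjusted p = 1.5e-05). SPNCRNA.471 stood at 465 and 374 FPKM in the double mutant and at 4.21 and 3.44 FPKM in wild type (log2 change 6.44, adjusted p = 7.9e-05). Of the antisense RNAs, SPNCRNA.1651, opposite the gene sdh8, stood at 1624 and 1029.7 FPKM in the double mutant and 24.6 and 9.05 FPKM in wild type (log2 change 6.33, adjusted p = 4.6e-05). SPNCRNA.1511, opposite ape2, which encodes an aminopeptidase, stood at 2845 and 2215 FPKM in the double mutant and 64.2 and 48.2 FPKM in wild type (log2 change 5.47, adjusted p = 1.5e-05). These 5 features kept their calls with each of the 4 libraries left out. SPNCRNA.2002, opposite the subtelomeric helicase gene tlh1, stood at 68.3 and 77.8 FPKM in the double mutant and 0.0185 and 0.174 FPKM in wild type, and it is described again with the single mutants.

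The meiotic transcripts that Mmi1 marks in growing cells rose as a group. Of 14 genes on the list 12 were tested, 11 were higher in the double mutant (91.7%, beside 11.7% of all features) and none was lower, with a median log2 change of 2.32. Both double mutant libraries lay above both wild type libraries for all 12, beside 35.3% of all features. mei4, which encodes the forkhead transcription factor of middle meiosis, stood at 84.0 and 106 FPKM in the double mutant and at 6.18 and 1.80 FPKM in wild type (log2 change 4.41, SE 0.43, adjusted p = 7.8e-05). It overlaps cdk9 on the same strand, which stood at 61.8 and 56.3 FPKM in the double mutant and 83.6 and 52.3 FPKM in wild type. rec8, the meiotic cohesin subunit, stood at 18.3 and 18.7 FPKM in the double mutant and at 5.98 and 0 FPKM in wild type (log2 change 2.88, SE 0.67, adjusted p = 0.015), and its call was lost without either double mutant library. mcp7, which acts in meiotic recombination, stood at 38.9 and 53.3 FPKM in the double mutant and 13.0 and 2.66 FPKM in wild type (log2 change 2.70, SE 0.50, adjusted p = 0.0047), and its call was lost without double mutant replicate 2.

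The other Mmi1 targets are given because the whole list is small. ssm4, a dynactin subunit used in meiotic nuclear movement, stood at 41.8 and 51.3 FPKM in the double mutant and at 8.29 and 4.84 FPKM in wild type (log2 change 2.68, adjusted p = 0.00040). spo5, an RNA-binding protein of meiosis, stood at 13.6 and 18.4 FPKM in the double mutant and 3.97 and 0.981 FPKM in wild type (log2 change 2.42, adjusted p = 0.0024). mug10 stood at 40.6 and 45.6 FPKM in the double mutant and 7.81 and 7.60 FPKM in wild type (log2 change 2.34, adjusted p = 0.00031). All 3 kept their calls with each library left out. rec10, mek1, mug8 and mug9 were called at log2 changes from 1.66 to 2.29, and dli1 at 0.95. crs1, a meiotic cyclin, stood at 13.3 and 20.7 FPKM in the double mutant and at 1.06 and 13.0 FPKM in wild type, and did not pass (adjusted p = 0.11). spo4 and num1 were listed at 0 in these libraries and were not tested. With library weights 9 of the 12 passed, and without double mutant replicate 2 only 6 did.

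**Figure D3:**
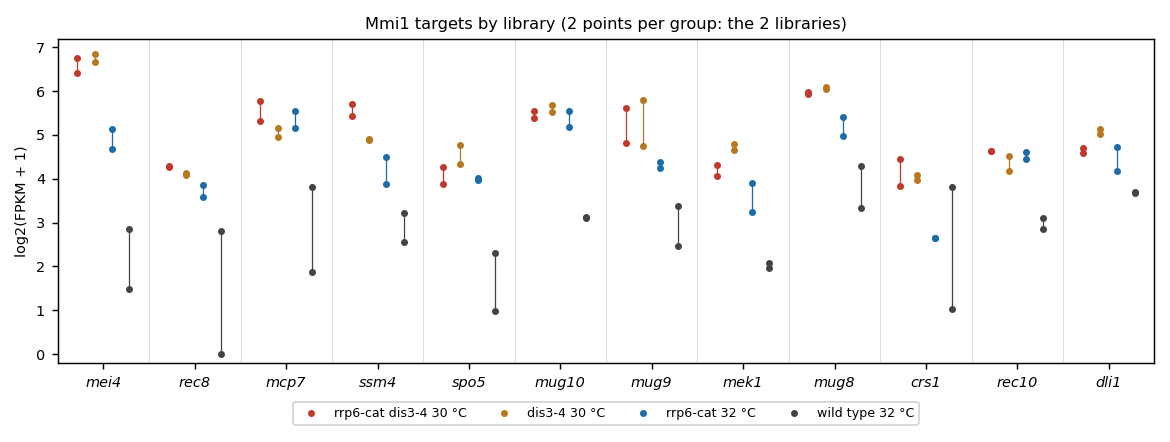
Level of the 12 tested Mmi1 targets (vertical axis, log2(FPKM + 1)) in rrp6-cat dis3-4 at 30 °C, dis3-4 at 30 °C, rrp6-cat at 32 °C and wild type at 32 °C, 2 points a group joined by a line, 1 point per library. Both double mutant libraries lie above both wild type libraries for every gene, and for most genes they lie beside the dis3-4 libraries.

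Some genes of other meiotic and mating steps also changed. From the 14 genes of meiotic recombination, 6 were tested and 3 were higher, beside 11.7% of all features. rec11, a meiotic cohesin subunit, stood at 8.36 and 8.89 FPKM in the double mutant and 1.36 and 0 FPKM in wild type. rec25 stood at 54.2 and 58.9 FPKM in the double mutant and 16.0 and 4.08 FPKM in wild type, and rec27 at 14.0 and 22.7 FPKM in the double mutant and 3.34 and 3.41 FPKM in wild type. Both rec25 and rec27 belong to the linear element proteins that prepare recombination hotspots. The log2 changes of the 3 were 2.65, 2.63 and 2.11, and each kept its call with every library left out. No gene was called in either direction among 13 tested of 19 genes of middle meiosis and sporulation, whose median was 0.42. On the list of mating and pheromone genes, 16 of 18 were tested, 3 were higher (rep1, mei3 and mam4, 18.8%) and mfm2 was lower (6.25%, beside 2.22% of all features). rep1, a transcription activator of premeiotic DNA synthesis, stood at 33.2 and 36.0 FPKM in the double mutant and at 5.34 and 4.55 FPKM in wild type (log2 change 2.58, SE 0.26, adjusted p = 7.9e-05). mei3, which encodes the inhibitor of the kinase Pat1 that starts meiosis, stood at 6.59 and 7.51 FPKM in the double mutant and 0.339 and 0 FPKM in wild type (log2 change 2.80, adjusted p = 0.023), and its call was lost without either double mutant library or wild type replicate 2. mfm2, a gene for the M-factor pheromone, stood at 21.5 and 22.6 FPKM in the double mutant and at 88.4 and 75.1 FPKM in wild type (log2 change −1.84, adjusted p = 0.0071), a call lost without either double mutant library. The labels do not give the mating types of the strains, on which mfm2 depends, and their part in this result was not tested. In bulk RNA, more cells that express a gene and more of its RNA per cell cannot be told apart.

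Outside these lists, the largest protein-coding rises were in genes with little or no signal in wild type. SPAC750.01, a gene on chromosome I with no symbol in the annotation used, stood at 157 and 147 FPKM in the double mutant and at 0.906 and 0 FPKM in wild type (log2 change 6.79, SE 0.46, adjusted p = 1.4e-05). SPAC1071.13 stood at 32.7 and 44.0 FPKM in the double mutant and at 0.000104 and 0.000706 FPKM in wild type (log2 change 5.28, SE 0.44, adjusted p = 2.7e-05). SPAC922.09 stood at 32.5 and 18.8 FPKM in the double mutant and new14 at 11.1 and 24.7 FPKM, and both were listed at 0 in the 2 wild type libraries (adjusted p = 6.5e-05 and 0.0082). In these 4 genes the lower double mutant library was at 11.1 FPKM or more and no wild type library reached 1 FPKM, though new14 lost its call without double mutant replicate 2. SPBC1711.15c stood at 283 and 286 FPKM in the double mutant and at 21.3 and 8.66 FPKM in wild type (log2 change 4.28, adjusted p = 7.3e-05), and it lies antisense to rec15, a meiotic recombination gene. SPAC959.11, which overlaps omh6 on the same strand, stood at 38.1 and 37.1 FPKM in the double mutant and near 0 in wild type, but its SE was 1.51 and its call (adjusted p = 0.039) was lost in each of the 4 fits without 1 library. Among genes with an annotated intron the largest rises were in sua7, the general transcription factor TFIIB, at 205 and 221 FPKM in the double mutant and 24.9 and 10.6 FPKM in wild type (log2 change 3.63, adjusted p = 7.9e-05), followed by arp1. This actin-related protein of the dynactin complex stood at 23.2 and 27.8 FPKM in the double mutant and 4.25 and 0 FPKM in wild type (log2 change 3.53, adjusted p = 0.0022). Of 2273 tested genes with an intron 122 were higher (5.37%) and 53 lower (2.33%). Of 2274 without one 217 were higher (9.54%) and 60 lower (2.64%), beside 11.7% higher and 2.22% lower among all features. This balance depends on scaling. With an intron 125 were higher and 179 lower after size factors, and 109 higher and 241 lower after quantile normalization. Without an intron 205 were higher and 150 lower after size factors, and 164 higher and 203 lower after quantile normalization.

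Genes of the exosome and its partners are given list by list, beside 11.7% of all features called higher and 2.22% lower. Of 13 exosome genes 1 was called (7.69%). This gene, mpp6, a nuclear cofactor of the complex, stood at 101 and 101 FPKM in the double mutant and 45.2 and 37.0 FPKM in wild type (log2 change 1.28, adjusted p = 0.013), and its call was lost without either double mutant library or wild type replicate 2. Of the 5 genes of the TRAMP complex and nuclear 5′ decay 2 were higher. cid14, the polyA polymerase of the TRAMP complex that tags RNA for the exosome, stood at 65.7 and 83.8 FPKM in the double mutant and at 40.9 and 12.4 FPKM in wild type (log2 change 1.67, adjusted p = 0.019). air1, its RNA-binding partner, stood at 49.1 and 51.9 FPKM in the double mutant and 23.7 and 23.5 FPKM in wild type (log2 change 1.06, adjusted p = 0.0078). Both calls were lost without either double mutant library, and that of cid14 also without wild type replicate 2. Among 13 tested of 14 genes of MTREC and the Mmi1 machinery, mmi1 and red1 were higher (15.4%), and the list median was 0.10. mmi1 stood at 38.5 and 47.1 FPKM in the double mutant and 16.2 and 6.67 FPKM in wild type (log2 change 1.92, adjusted p = 0.0075), and red1 at 109 and 121 FPKM in the double mutant and 64.5 and 38.9 FPKM in wild type (log2 change 1.18, adjusted p = 0.012). Without double mutant replicate 2 neither passed, and red1 also lost its call without double mutant replicate 1 or wild type replicate 2. In the 15 tested of 17 genes of RNA interference and heterochromatin 2 were higher (13.3%), rdp1, the RNA-dependent RNA polymerase (log2 change 1.64, adjusted p = 0.0098), and chp1, the chromodomain protein of the RITS complex (log2 change 1.54, adjusted p = 0.018), both of which lost their calls without double mutant replicate 2. Cytoplasmic decay genes had 1 higher call, dcp1, a decapping subunit (5.26%), and 2 lower calls, lsm1 and ste13 (10.5%), among 19, with a median of 0.11, and none of the 3 calls passed with library weights.

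Many genes that build ribosomes were higher, and few ribosomal protein genes were. Of 17 tested ribosome biogenesis genes of 20, 10 were higher (58.8%, beside 11.7% of all features) and none lower, with a median log2 change of 1.41. For 16 of the 17 both double mutant libraries lay above both wild type libraries, beside 35.3% of all features. rrn3, an initiation factor of RNA polymerase I, stood at 53.8 and 60.5 FPKM in the double mutant and at 18.3 and 11.1 FPKM in wild type (log2 change 1.92, SE 0.32, adjusted p = 0.0023). nuc1, the large subunit of that polymerase, stood at 115 and 109.95 FPKM in the double mutant and 62.0 and 16.5 FPKM in wild type (log2 change 1.77, adjusted p = 0.020). tsr1, a factor of small subunit assembly, stood at 50.2 and 79.3 FPKM in the double mutant and 33.8 and 10.3 FPKM in wild type (log2 change 1.70, adjusted p = 0.024). In both of these genes wild type replicate 2 was far below wild type replicate 1, and both calls were lost without it or without either double mutant library. The number called in the list was 2 without double mutant replicate 1, 2 without double mutant replicate 2, 15 without wild type replicate 1 and 2 without wild type replicate 2, and without wild type replicate 2 the list median was 0.66.

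From the 8 tested snoRNP protein genes of 9, gar2, nop10 and snu13 were higher (37.5%). gar2, the nucleolin-like protein, stood at 43.4 and 55.6 FPKM in the double mutant and at 11.2 and 6.83 FPKM in wild type (log2 change 2.36, adjusted p = 0.0018), and it passed in every fit without 1 library, whereas nop10 and snu13 lost theirs without either double mutant library or wild type replicate 2. Of 133 tested ribosomal protein genes 4 were called higher (3.01%, beside 11.7% of all features), with a median of 0.20, close to the 0.24 of all features. rpl3002 was the one with the largest change, at 464 and 426 FPKM in the double mutant and 164 and 96.3 FPKM in wild type (log2 change 1.81, SE 0.29, adjusted p = 0.0021), and it kept its call with every library left out. rpl102 and rpl26 rose by 1.15 and 1.08 on the log2 scale, and both lost their calls without either double mutant library or wild type replicate 2. Rescaling by size factors gave 1 ribosomal protein gene higher and 3 lower.

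Several genes of iron and heme uptake were higher. Of 13 tested, 4 were higher (30.8%, beside 11.7% of all features) and none lower, with a median log2 change of 0.81, which was 0.21 without wild type replicate 2 and 0.25 with quantile normalization. shu1, which encodes a heme-binding protein of the cell surface, stood at 30.4 and 22.5 FPKM in the double mutant, while wild type was listed at 0 in each library (adjusted p = 4.5e-05). str3, a heme transporter, stood at 21.5 and 45.3 FPKM in the double mutant and at 2.95 and 0.928 FPKM in wild type (log2 change 3.55, SE 0.67, adjusted p = 0.0051). fio1, a multicopper oxidase for iron, stood at 13.9 and 19.3 FPKM in the double mutant and 2.16 and 1.76 FPKM in wild type (log2 change 2.56, SE 0.51, adjusted p = 0.0070). str3 and fio1 lost their calls without double mutant replicate 2, and shu1 kept its call in each such fit. frp1, a ferric reductase, was the other called gene (log2 change 2.14, adjusted p = 0.0078), and its call was lost without either double mutant library. The iron repressor fep1 stood at 23.6 and 23.1 FPKM in the double mutant and 21.4 and 25.5 FPKM in wild type, and these values overlap. From the 6 phosphate genes, tgp1, a glycerophosphodiester transporter, was higher, at 86.6 and 79.7 FPKM in the double mutant and 7.31 and 9.56 FPKM in wild type (log2 change 3.17, SE 0.33, adjusted p = 0.00010), and it kept its call in every fit without 1 library. The noncoding RNA prt2, upstream of the phosphate transporter gene pho84 and chosen after its value was seen, stood at 169.5 and 168 FPKM in the double mutant and 34.8 and 28.9 FPKM in wild type (log2 change 2.38, adjusted p = 7.9e-05). pho84 itself stood at 163 and 187 FPKM in the double mutant and at 158 and 78.6 FPKM in wild type (log2 change 0.64, adjusted p = 0.29). pho1, the secreted acid phosphatase, stood at 202 and 221 FPKM in the double mutant and 157 and 85.8 FPKM in wild type (adjusted p = 0.053). No gene was called among the 4 zinc genes.

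Some stress genes were higher. Of 14 tested core stress genes of 16, 4 were higher (28.6%, beside 11.7% of all features) and none lower. gst2, a glutathione S-transferase, stood at 308 and 268 FPKM in the double mutant and 24.3 and 86.1 FPKM in wild type (log2 change 2.62, adjusted p = 0.0087). srx1, the sulfiredoxin, stood at 72.9 and 81.9 FPKM in the double mutant and 28.6 and 17.4 FPKM in wild type (log2 change 1.75, adjusted p = 0.0020). The other called genes were caf5 (log2 change 2.36) and tps1 (log2 change 0.93), a trehalose phosphate synthase. The list median was 0.37, and srx1 was the 1 of the 4 that kept its call with every library left out. Among 17 chaperones 2, hsp104 and ssa1, were higher (11.8%, close to the 11.7% of all features), at log2 changes of 1.29 and 1.12, and the median was 0.11. Both lost their calls without either double mutant library or wild type replicate 2, and neither passed with library weights.

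**Figure D4:**
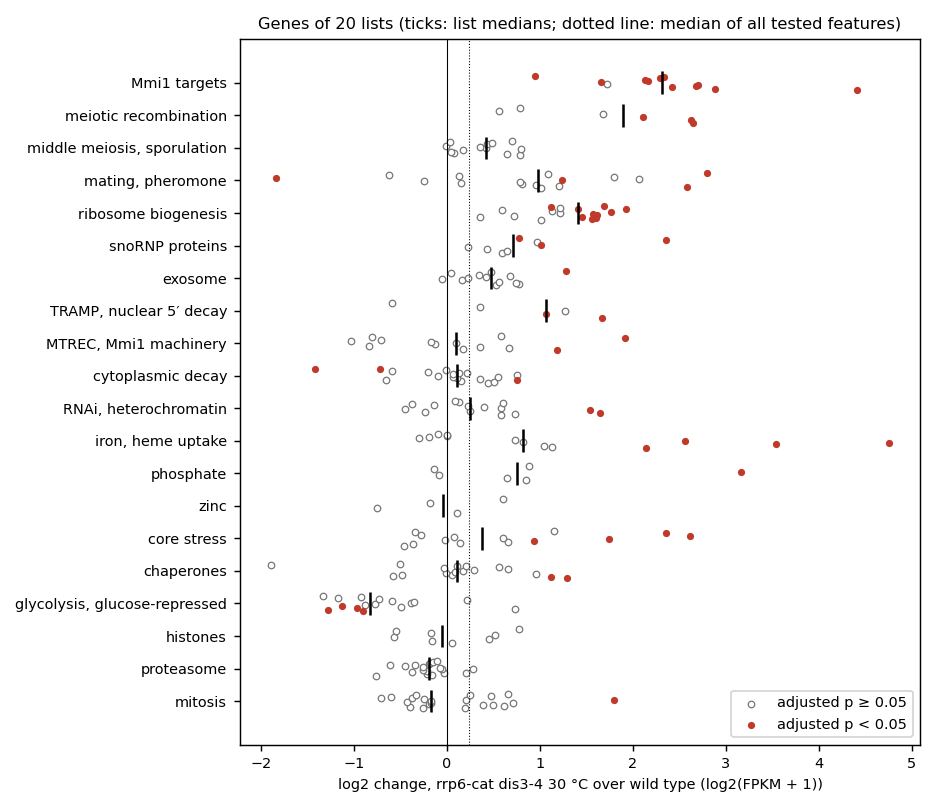
Log2 change of rrp6-cat dis3-4 at 30 °C over wild type (horizontal axis, log2(FPKM + 1) scale) for the tested genes of 20 lists, 1 row per list and 1 point per gene; filled points passed at adjusted p under 0.05, ticks are list medians and the dotted line is the median of 0.24 over all tested features. The Mmi1 targets (median 2.32) and ribosome biogenesis genes (median 1.41) lie mostly to the right of that line, and the glycolysis genes (median −0.83) mostly to the left.

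Without rescaling, falls were fewer than rises, and the largest called falls were smaller than the largest called rises. The count depends on scaling: over all features 696 were higher and 370 lower after size factors, and 562 higher and 503 lower after quantile normalization. Among protein-coding genes quantile normalization gave 273 higher and 444 lower. Of the lists, glycolysis and glucose-repressed genes had the most falls, with 4 lower (25%, beside 2.22% of all features) and none higher of 16 tested genes of 17. The list median was a log2 change of −0.83. For 13 of the 16 both double mutant libraries lay below both wild type libraries, beside 15.6% of all features. tdh1, a glyceraldehyde-3-phosphate dehydrogenase, stood at 1071 and 985 FPKM in the double mutant and at 2294 and 2707 FPKM in wild type (log2 change −1.28, SE 0.24, adjusted p = 0.0051). eno101, the enolase, stood at 2607 and 2841 FPKM in the double mutant and 5708 and 6241 FPKM in wild type (log2 change −1.13, SE 0.24, adjusted p = 0.0098). pgk1, phosphoglycerate kinase, stood at 1044 and 1249 FPKM in the double mutant and 1998 and 2486 FPKM in wild type (log2 change −0.96, SE 0.26, adjusted p = 0.029). fba1, the aldolase, was the other (log2 change −0.90, adjusted p = 0.026). The number called lower was 1 without double mutant replicate 1, 0 without double mutant replicate 2, 8 without wild type replicate 1 and 1 without wild type replicate 2, and 1 gene, tdh1, passed with library weights.

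The largest called protein-coding fall was in aes1. It stood at 9.55 and 5.28 FPKM in the double mutant and at 50.8 and 389.9 FPKM in wild type (log2 change −4.13, adjusted p = 0.0026), where the 2 wild type libraries themselves differ several-fold. mug114 stood at 4.41 and 3.17 FPKM in the double mutant and 19.1 and 30.5 FPKM in wild type (log2 change −2.40, adjusted p = 0.013), and it kept its call in 1 of the 4 fits without 1 library. gdh1, the glutamate dehydrogenase, stood at 74.2 and 79.2 FPKM in the double mutant and 228 and 471 FPKM in wild type (log2 change −2.08, SE 0.30, adjusted p = 0.00099), and it passed in every fit without 1 library. ser2, a phosphoserine phosphatase, stood at 29.2 and 18.8 FPKM in the double mutant and 119.8 and 95.2 FPKM in wild type (log2 change −2.14, adjusted p = 0.0026). put2, which acts in proline catabolism, and sam1, the S-adenosylmethionine synthetase, fell by 1.86 and 2.06 on the log2 scale, but lost their calls without either double mutant library, and sam1 also without wild type replicate 2. SPAC56E4.03 was the remaining one named by rule beside mfm2. It stood at 87.2 and 107 FPKM in the double mutant and 226 and 536 FPKM in wild type (log2 change −1.84, adjusted p = 0.0043). These are single genes named by the size of their change. Noncoding falls included SPNCRNA.568, antisense to the purine gene ade7, at 26.2 and 33.2 FPKM in the double mutant and 154 and 153 FPKM in wild type (log2 change −2.34, adjusted p = 0.0046). SPNCRNA.1305 stood at 19.03 and 19.8 FPKM in the double mutant and 77.3 and 162 FPKM in wild type (log2 change −2.47, adjusted p = 0.00048). Both kept their calls with every library left out. SPMITTRNASER.02, a mitochondrial tRNA, was listed at 0 in both double mutant libraries and at 5.82 and 23.8 FPKM in wild type (log2 change −3.70, adjusted p = 0.039). SPNCRNA.388 stood at 5.09 and 4.64 FPKM in the double mutant and 55.4 and 13.6 FPKM in wild type (log2 change −2.29, adjusted p = 0.032). Without wild type replicate 1 these changes were −4.63 and −1.32, and without wild type replicate 2 they were −2.77 and −3.27. No gene was called among 8 tested histone genes (median −0.06) or 19 tested proteasome genes (median −0.19), and 1 of 21 mitosis genes, the Aurora kinase gene ark1, was higher (log2 change 1.79, adjusted p = 0.018).

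The double mutant was next set against dis3-4 at the same temperature and after the same shift, a comparison that does not use the wild type libraries and in which rrp6-cat is the labelled difference. Here 112 of 6083 features passed (1.84%), 92 higher (1.51%) and 20 lower (0.329%) in the double mutant, with a median log2 change of 0.23. Of those, 69 higher (1.52% of tested protein-coding genes) and 15 lower (0.33%) were protein-coding. Another 16 higher (1.16% of tested long noncoding RNAs) and 5 lower (0.361%) were long noncoding RNAs, so both classes lay near the shares of all features. Of the 50 snoRNA features 2 were higher, with a median of −0.01, and of the 8 snRNAs snu3 and snu5 were higher, with a median of 1.67. None of the 12 Mmi1 targets passed, and their median was −0.09. The number that passed was 9 without double mutant replicate 1 and 11 without double mutant replicate 2, 103 without dis3-4 replicate 1 and 23 without dis3-4 replicate 2.

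Among the lists, iron and heme uptake had 3 higher genes of 13 tested in this comparison, shu1, str3 and fio1. That is 23.1%, beside 1.51% of all features, and the list shares below are read beside the same 1.51%. shu1 stood at 30.4 and 22.5 FPKM in the double mutant, was listed at 0 in both dis3-4 libraries (adjusted p = 0.00024), and stood at 1.71 and 2.51 FPKM in rrp6-cat. str3 stood at 21.5 and 45.3 FPKM in the double mutant and 1.89 and 0 FPKM in dis3-4 (log2 change 4.25, adjusted p = 0.011). fio1 stood at 13.9 and 19.3 FPKM in the double mutant and 2.84 and 2.45 FPKM in dis3-4 (log2 change 2.26, adjusted p = 0.049). pho84 stood at 163 and 187 FPKM in the double mutant and at 28.9 and 48.0 FPKM in dis3-4 (log2 change 2.2, adjusted p = 0.015), and tgp1 was higher by 1.51 on the log2 scale (adjusted p = 0.044). These were 2 of the 6 phosphate genes (33.3%). prt2, at 169.5 and 168 FPKM in the double mutant and 54.7 and 45.7 FPKM in dis3-4, was higher by 1.74 (adjusted p = 0.0050). Of the stress list, zym1, a metallothionein, stood at 129 and 162 FPKM in the double mutant and 28.4 and 7.06 FPKM in dis3-4 (log2 change 3.24, adjusted p = 0.0056), while srx1 was higher by 1.94 and gpd1, a glycerol-3-phosphate dehydrogenase, by 1.04. They were 3 of the 14 tested stress genes (21.4%). gar1, a snoRNP protein, the ribosome biogenesis GTPase gene grn1 and the pheromone gene mfm1 were the other list genes that were higher. Their log2 changes were 1.56, 1.19 and 3.33. They were 1 of 8 tested (12.5%), 1 of 17 (5.88%) and 1 of 16 (6.25%) on their lists. Size factors left 3 higher calls in iron and heme uptake, 2 in core stress, 1 in phosphate and 1 in snoRNP proteins. Ribosome biogenesis then had 0, and mating and pheromone had 0 higher and 1 lower. mfm2 changed by −1.57 and did not pass (adjusted p = 0.059). The part of mating type in mfm1 and mfm2 was not tested.

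Several genes that were lower in the double mutant than in dis3-4 stood high in dis3-4 beside the other strains. adh4, an alcohol dehydrogenase repressed when zinc is plentiful, stood at 29.4 and 51.5 FPKM in the double mutant, 594 and 854 FPKM in dis3-4, 20.3 and 31.4 FPKM in rrp6-cat and 50.5 and 87.2 FPKM in wild type (double mutant against dis3-4, log2 change −4.16, adjusted p = 0.00024). zrt1, a zinc transporter, stood at 38.2 and 41.2 FPKM in the double mutant, 221 and 345 FPKM in dis3-4, 20.8 and 21.6 FPKM in rrp6-cat and 28.0 and 48.5 FPKM in wild type (log2 change −2.77, adjusted p = 0.0011). For both, each dis3-4 library lay several-fold above every library of the other 3 strains, and the lowest library was 1 of rrp6-cat. ubi4, the polyubiquitin gene, chosen after its values were seen, was highest in dis3-4 as well, at 44.7 and 51.8 FPKM in the double mutant, 237 and 297 FPKM in dis3-4, 32.5 and 52.7 FPKM in rrp6-cat and 28.1 and 31.1 FPKM in wild type (double mutant against dis3-4, log2 change −2.44, adjusted p = 0.00080). wos2, a co-chaperone of Hsp90, was lower by 0.99 on the log2 scale (adjusted p = 0.032).

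The features with the largest falls against dis3-4 were low outside that strain. SPAC977.05c stood at 1.63 and 1.32 FPKM in the double mutant and at 516 and 854 FPKM in dis3-4 (log2 change −8.07, adjusted p = 1.3e-05), with both wild type libraries listed at 0. SPCC13B11.02c stood at 0.000555 and 0.0143 FPKM in the double mutant, 321 and 142 FPKM in dis3-4 and 1.55 and 7.28 FPKM in wild type (double mutant against dis3-4, log2 change −7.74, adjusted p = 0.0061). Members of the ftm family followed: ftm2 stood at 1.02 and 0 FPKM in the double mutant and 40.5 and 62.5 FPKM in dis3-4, and ftm6 near 0 in the double mutant and at 11.3 and 23.7 FPKM in dis3-4. In the other direction, SPAC750.01 stood at 157 and 147 FPKM in the double mutant and 6.27 and 1.71 FPKM in dis3-4 (log2 change 5.10, adjusted p = 0.00024), and SPNCRNA.2002 at 68.3 and 77.8 FPKM in the double mutant and 0.00679 and 0.00884 FPKM in dis3-4 (log2 change 6.2, adjusted p = 0.0014). Each genotype is 1 strain, so a difference in strain background and one caused by rrp6-cat cannot be told apart here, and ftm2, ftm6 and SPAC977.05c belong to related copies between which reads may be shared.

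**Figure D5:**
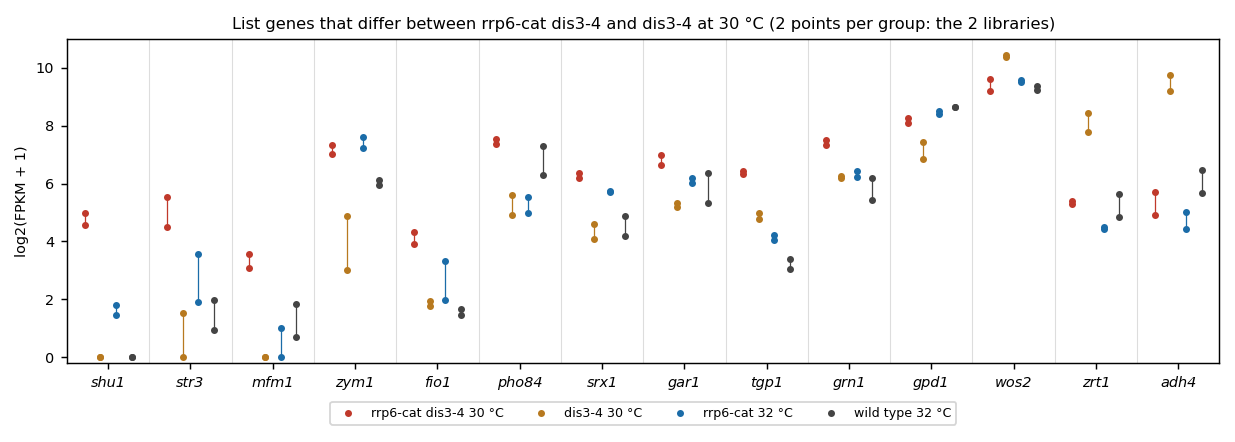
Level (vertical axis, log2(FPKM + 1)) of the 14 genes of the lists that differed between rrp6-cat dis3-4 and dis3-4 at 30 °C, in those 2 groups, rrp6-cat and wild type, 2 points a group joined by a line, 1 point per library. 11 genes are higher in the double mutant than in dis3-4, and wos2, zrt1 and adh4 are lower, with adh4 at 29.4 and 51.5 FPKM in the double mutant against 594 and 854 FPKM in dis3-4.

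The shift itself was compared within the double mutant strain. Between 30 °C and 23 °C no feature of 6083 passed limma's test (0%), 96 (1.58%) had an unadjusted p under 0.05, and the median log2 change was 0.08. mei4 stood at 84.0 and 106 FPKM at 30 °C and at 75.4 and 60.8 FPKM at 23 °C, and SPNCRNA.491 at 1470.3 and 987 FPKM at 30 °C and 1133 and 1445 FPKM at 23 °C. For SPNCRNA.491 the temperatures overlap, and for mei4 they lie close together beside the wild type values of 6.18 and 1.80 FPKM. shu1 stood at 30.4 and 22.5 FPKM at 30 °C and 27.3 and 19.04 FPKM at 23 °C, and tgp1 at 86.6 and 79.7 FPKM at 30 °C and 71.6 and 61.1 FPKM at 23 °C. SPAC922.09, at 32.5 and 18.8 FPKM at 30 °C and 5.63 and 6.69 FPKM at 23 °C, had one of the wider gaps and a log2 change of 1.85 that did not pass.

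The single mutants give the frame for the double mutant, and the 3 comparisons with wild type share the same 2 wild type libraries. Against wild type, 522 features (8.58%) passed in dis3-4 at 30 °C, 388 higher (6.38%) and 134 lower (2.2%), and 343 (5.64%) passed in rrp6-cat, 297 higher (4.88%) and 46 lower (0.756%). The Mmi1 targets had 11 higher calls in the double mutant, 11 in dis3-4 and 7 in rrp6-cat, with medians of 2.32, 2.30 and 1.55. The snoRNAs had 30, 26 and 29 higher calls in the double mutant, dis3-4 and rrp6-cat, with medians of 4.00, 3.31 and 4.06, and the snRNAs had 7, 3 and 7, with medians of 3.02, 2.27 and 4.13.

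Whether the double mutant departed from the sum of the single-mutant log2 changes was tested as an interaction, the log2 change of the double mutant over dis3-4 at 30 °C minus that of rrp6-cat over wild type at 32 °C. A departure was called for 149 features (2.45%), 26 above the sum (0.427%) and 123 below it (2.02%). Below the sum lay 77 long noncoding RNAs (5.56% of those tested), with 2 above it, and 17 snoRNAs (34% of those tested), with none above. The snoRNA median was −3.14. sno16 stood at 256 and 134 FPKM in the double mutant, 334 and 571 FPKM in dis3-4, 220.2 and 567 FPKM in rrp6-cat and below 0.001 FPKM in wild type, a departure of −9.70 (adjusted p = 1.8e-05). SPNCRNA.491 stood at 1470.3 and 987 FPKM in the double mutant, 1346 and 2112 FPKM in dis3-4 and 368 and 1178 FPKM in rrp6-cat, a departure of −9.84 (adjusted p = 1.8e-05). Each of the 6 mutant libraries held both RNAs well above wild type, so adding the changes of both single mutants gives far more than was measured. Of the Mmi1 targets mei4, spo5 and mug10 lay below the sum, by −2.91, −2.83 and −2.39: mei4, at 84.0 and 106 FPKM in the double mutant, stood at 113 and 100.03 FPKM in dis3-4 and 24.5 and 34.1 FPKM in rrp6-cat.

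Of the 26 features above the sum, 24 were protein-coding, which is 0.528% of tested protein-coding genes beside 0.427% of all features. shu1 lay 3.14 above the sum (adjusted p = 0.019). pho84, at 163 and 187 FPKM in the double mutant, 28.9 and 48.0 FPKM in dis3-4, 44.9 and 30.7 FPKM in rrp6-cat and 158 and 78.6 FPKM in wild type, lay 3.76 above it (adjusted p = 0.0031). For pho84 both single mutants were lower than wild type in each library. Both double mutant libraries were above both wild type libraries, but only narrowly for the closest pair, at 163 and 158 FPKM. pho84 did not pass against wild type. nrg1 was likewise lower in each single mutant library than in wild type, at 25.9 and 26.8 FPKM in the double mutant, 4.84 and 4.14 FPKM in dis3-4, 3.18 and 0.436 FPKM in rrp6-cat and 16.6 and 70.6 FPKM in wild type, a departure of 6.18 (adjusted p = 0.0069). SPCC1259.08, at 63.7 and 85.6 FPKM in the double mutant, 46.2 and 45.8 FPKM in dis3-4, 6.55 and 1.98 FPKM in rrp6-cat and 89.3 and 60.9 FPKM in wild type, lay 4.65 above the sum (adjusted p = 0.0013). gdh1 lay 1.84 above it (adjusted p = 0.045), with all 3 mutants lower than wild type, at 74.2 and 79.2 FPKM in the double mutant, 75.5 and 65.0 FPKM in dis3-4 and 109 and 89.6 FPKM in rrp6-cat. The wild type libraries enter every departure: leaving out wild type replicate 1 gave 565 calls, leaving out wild type replicate 2 gave 202, and leaving out 1 of the other 6 gave 54 to 102.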

How the data were processed

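Per the labels' protocols, RNA was isolated with a Ribopure yeast kit, polyA-selected, and made into stranded dUTP libraries with a NuGEN kit. The values used here are the FPKM that the authors deposited for 7027 features in 14 polyA libraries, a measure of fragments relative to transcript length and library size. Per the submitters' processing notes, reads were handled with Bowtie2, TopHat2 2.1.0, Cufflinks 2.2.1, Cuffdiff and Cuffnorm on the build ASM294v2. No source used here gives the annotation, the scaling, the use of strand or the numbers of reads.

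Feature names came from a RefSeq table of another build, which matched 6855 features, so no coordinates are given. Values were taken as log2(FPKM + 1), so fold changes of low genes are understated. limma 3.58.1 with a mean trend (R 4.3.3) was fitted to all 14 libraries as 7 group means, which leave 1 residual degree of freedom a group, and p-values were adjusted by Benjamini-Hochberg over the 6083 features with a mean of at least 1 FPKM. With 2 libraries against 2, an exact permutation test of a single value cannot go below p = 0.333, so none was run. The scripts were tested on simulated data, with pass marks set only for values in which every group had the same spread. In these libraries the spreads differ, so the simulation does not check the error rate of the comparisons with wild type. Low FPKM values were not whole multiples of 1 fragment often enough to recover reads, at 37.1% to 50.5% within a tolerance of 0.02. The relative depths given above are therefore rough. Coverage of the 3′-ligated libraries was not used here.

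Named genes were rrp6 and dis3, the largest called rises (8 protein-coding, 6 noncoding) and falls (8 and 4) that reached 5 FPKM and did not overlap between groups, up to 3 called members of each of 20 lists and each class, and the 5 largest rises and falls of the other tests. Genes named outside this rule were chosen after their values were seen. The members, lists and tests were chosen with earlier results of these data known.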

Additional observations from a re-analysis of the deposited data

Results flagged for a closer look

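Each result here is a feature named by rule whose level in the double mutant at 30 °C differed from the sum of the log2 changes of the 2 single mutants, by the interaction test of the limma fit at an adjusted p under 0.05. There were 149 such features in all.

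Below the sum, the departures on the log2(FPKM + 1) scale were −9.84 for SPNCRNA.491, −9.70 for sno16, −8.75 for SPAC977.05c, −7.68 for SPNCRNA.855, −7.43 for SPCC13B11.02c, −5.69 for SPNCRNA.1651, −5.64 for SPNCRNA.471, −5.05 for SPNCRNA.1490 and −5.01 for SPNCRNA.1511. SPNCRNA.388 departed by −4.69, mei4 by −2.91, SPAC1071.13 by −2.88, adh4 by −2.80, rpl3002 by −1.88, rep1 by −1.82 and red1 by −1.63. SPNCRNA.855 stood at 3.74 and 0 FPKM in the double mutant, 39.4 and 30.3 FPKM in dis3-4, 35.6 and 33.7 FPKM in rrp6-cat and 7.12 and 0 FPKM in wild type, so it was high in each single mutant and not in the double mutant. red1 stood at 109 and 121 FPKM in the double mutant, 99.0 and 87.4 FPKM in dis3-4, 178 and 213 FPKM in rrp6-cat and 64.5 and 38.9 FPKM in wild type.

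Above the sum, the departures were 6.31 for SPNCRNA.2002, 6.18 for nrg1, 5.62 for SPBPB2B2.06c, 4.65 for SPCC1259.08, 4.10 for SPBC1289.14, 3.14 for shu1 and 1.84 for gdh1. SPBC1289.14 stood at 11.8 and 11.7 FPKM in the double mutant, 1.18 and 0 FPKM in dis3-4, 0.568 and 0.622 FPKM in rrp6-cat and 3.43 and 1.28 FPKM in wild type.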

How the results depend on the processing

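Against wild type, the count of 847 was 378 with library weights, 71 with only the 2 groups in the fit, and 283 to 1608 with 1 library left out. Against dis3-4, 112 became 397 with library weights, 15 with only those groups, and 9 to 103 with 1 library left out. Between the temperatures, 0 became 2 with no filter. The 149 departures became 92 with library weights, 39 with only the 4 groups, and 54 to 565 with 1 library left out. The share of calls that were higher against wild type was 84.1%, 65.3% after size factors and 52.8% after quantile normalization, against dis3-4 82.1%, 69.4% and 67.9%, and 17.4% of departures lay above the sum, 30.3% after quantile normalization and 28.9% with no filter. Of the named genes none that was called changed sign. Uncalled ones did: ftm6 −0.39 with quantile normalization, nrg1 0.64 without wild type replicate 2 (−1.39 without replicate 1), SPNCRNA.855 0.73 without double mutant replicate 2 and 1.12 without wild type replicate 1 (−1.90 without replicate 2), and SPCC1259.08 −0.21 with size factors, −0.19 with quantile normalization, −0.21 without double mutant replicate 2 and −0.27 without wild type replicate 2 (0.27 without replicate 1). The cause was not tested. Of 96 named features, 85 were called and 37 kept the call with each of 4 libraries left out. A replicate block gave 993, 154, 0 and 175 calls in the 4 tests. Deviations of same-numbered libraries correlated at 0.015 between the double mutant and wild type (−0.154 to 0.315 over all pairs of groups), so the numbers were not taken to pair libraries.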

Other observations

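Values outside the lists showed further differences from wild type. Among features that could not be matched to the annotation used, SPMTR.01 stood at 30.1 and 26.4 FPKM in the double mutant, 19.8 and 31.6 FPKM in dis3-4 at 30 °C, and was listed at 0 in rrp6-cat and in wild type (double mutant against wild type, adjusted p = 0.00032). It was present in both dis3-4 strains at both temperatures and passed in every fit without 1 library. The labels do not give the mating types of the strains, and whether this feature, like mfm2, marks a difference between strains of that kind and not of the labelled alleles was not tested. The pseudogene SPAC977.13c stood at 37.5 and 47.1 FPKM in the double mutant, 1.59 and 0 FPKM in dis3-4, 5.76 and 9.17 FPKM in rrp6-cat and 7.48 and 2.35 FPKM in wild type (double mutant against wild type, log2 change 3.01, adjusted p = 0.028), and the call against wild type was lost without either double mutant library or wild type replicate 2. snR88 stood at 83.5 and 58.1 FPKM in the double mutant, 31.0 and 22.6 FPKM in rrp6-cat, and was listed at 0 in dis3-4 and in wild type (double mutant against dis3-4, adjusted p = 0.0077). sme2, the meiotic noncoding RNA that sequesters Mmi1, chosen after its values were seen, stood at 234 and 194 FPKM in the double mutant and at 9.30 and 78.9 FPKM in wild type, and did not pass (adjusted p = 0.065).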
